A study of Mus musculus and Homo sapiens with 22 samples.

Results

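Lin28A binding was described on the transcripts of 4 genes of mitosis and DNA replication, Top2a, Cenpf, Cenpe and Mki67, in mouse embryonic stem (mES) cells with and without Mettl3. The cells were of the V6.5 line, grown in serum and leukaemia inhibitory factor, and were either Mettl3 wild type (WT) or Mettl3 knockout (KO). The labels do not say whether the knockout line is 1 clone or how its allele was made. Bound RNA was mapped by irCLIP, in which ultraviolet light crosslinks protein to RNA and an antibody, here against Lin28A, recovers the crosslinked fragments. Each genotype had 1 site list, and the anti-GFP controls were not analysed here. The series also holds structure probing of HEK293 and mES fractions, which was not used because no table given pairs its transcript identifiers with genes.

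A site was a row of a list that lay wholly within the RefSeq bounds of a gene (assembly GRCm38.p6, the assembly behind mm10) on the strand of that gene. By this rule 29 of 10990 WT sites and 38 of 11285 KO sites belonged to the 4 genes, out of 6753 WT and 6914 KO sites in 17492 protein-coding genes with a known strand. At least 1 site in either list fell in 3192 of those genes. The tables give gene bounds without exons, so a site may lie in an exon or in an intron. The genes were chosen with their site numbers in these lists known. Numbers of sites per gene and presence in 1 list are therefore descriptions with no test, and with 1 list per genotype there is no replicate check. More RNA of a gene and more Lin28A on each RNA cannot be told apart in a site list.

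Lin28A is an RNA-binding protein of stem cells with a cold shock domain and a pair of zinc knuckles. It blocks the maturation of let-7 microRNAs and also binds many mRNAs, often at GGAG and related sequences. Mettl3 is the catalytic subunit of the complex that writes N6-methyladenosine on mRNA. The products of the 4 genes act on chromosomes in dividing cells. Top2a encodes topoisomerase II alpha, which passes one DNA duplex through another and untangles sister chromatids. Cenpf and Cenpe encode large coiled-coil proteins of the kinetochore, the structure that attaches chromosomes to spindle microtubules. Mki67 encodes Ki-67, which coats mitotic chromosomes and is widely used as a marker of dividing cells. Embryonic stem cells in culture divide fast.

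Bound RNA carried markers of the labelled cell type. Sites lay in all 10 stem cell marker genes that could be placed on a strand, among them Pou5f1, Sox2 and Nanog, with 46 WT and 63 KO sites in total. None of 7 markers of differentiated cells that could be placed held a site in either list, beside 18.2% of all protein-coding genes with a site, so the absence in so few genes is near the background. Mettl3 itself held no site in either list, so the genotype labels could not be checked with these data. The lowest score was 13 in the WT list and 12 in the KO list, and the median scores were 20 and 19. The score is the authors' own value for each site. It was a whole number for every 50-nt site, and for 99.8% of wider sites in each list the score times the number of 50-nt bins was whole to within 0.01. No source used here gives the reads per library, so the sizes of WT and KO scores are given side by side and not compared. Where 1 minimum score is applied to both lists below, the same score may stand for different evidence in each.

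Sequence was at hand for a single stretch of these sites. A KO site at the start of Cenpf reached into the first transcribed bases held in the RefSeq promoter table (GRCm38.p6), and the 14 bases under it, chr1:189688037-189688050 on the minus strand, are shown because they are the only bases of any of the sites that could be read. They are bases 37 to 50 from the transcription start of that table, printed 5′ to 3′ as DNA letters.
Cenpf, start of the transcript: gcgcTGTGTGagga
The capitals mark 2 overlapping copies of TGTG. TGTG occurred on the RNA strand in 5.73% of 32851 start windows at the same 14 positions. GGAG occurred in 9.71% of those windows and was not among these letters. The letters end in GGA where the sequence stops, so a GGAG or GGAC completed by the next base could not be seen. The other 36 bases of this 50-nt site, and all other sites, lay outside the sequences given.

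Top2a was among the genes with the most Lin28A sites in either list. It spans chr11:98992947-99024199 on the minus strand and held 21 WT and 22 KO sites, more than 99.4% of the 2642 genes with a WT site and 99.5% of the 2810 genes with a KO site. Per length this was 6.72 sites per 10 kb in the WT list and 7.04 in the KO list, denser than 93.2% and 93.7% of those genes. The KO share of its sites was 51.2% (exact binomial 95% interval 35.5 to 66.7, for counting error only), beside 50.6% over all 13667 sites in protein-coding genes. The numbers in the genotypes differed by 1 site.

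The strongest Top2a sites were at the same places in both lists. The site with the highest score lay 12.1 kb from the gene start, at chr11:99012001-99012100, with a score of 113 in the WT list and 110.5 in the KO list. These scores exceeded 95.7% of all WT sites and 96.0% of all KO sites. The next lay 19999 nt from the start, at chr11:99004101-99004200, with scores of 54.5 in WT and 62.5 in KO. The third lay 30.8 kb from the start, near the 3′ end of the gene at chr11:98993251-98993400, with 51 in WT and 47.3 in KO. The highest 3 sites of Top2a therefore came in the same order in each list. The remaining 14 shared sites scored between 13 and 37 in WT and between 12 and 38 in KO. Over the 17 sites of the WT list that overlapped a KO site, the scores of the lists had a Spearman rho of 0.70, as a description of sites that share 1 RNA and 2 libraries. The bounds were identical for 16 of these 17.

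Single-list sites of Top2a had low scores, as most single-list sites did: over all protein-coding genes 26.9% of WT and 28.6% of KO sites were in 1 list, and 87.3% and 90.4% of those scored under 20. The 4 WT sites without an overlapping KO site scored between 14 and 16, and lay 7999 nt and 14.3, 27.4 and 30.3 kb from the gene start. The 5 KO sites without an overlapping WT site scored between 12 and 14, at 7.10, 7.95, 14.0, 26.3 and 31.0 kb. The nearest site of the other list was between 0 and 1050 nt away. The WT site at 7999 nt directly abutted the KO site at 7.95 kb, and the WT site at 14.3 kb ended 250 nt from the KO site at 14.0 kb. The KO site at 7.10 kb, chr11:99017001-99017100 with a score of 13, overlapped 70 nt of an annotated small nucleolar RNA gene, LOC115487886 (chr11:99017031-99017152), which lies within the bounds of Top2a. The strand of the small RNA gene was not given, so whether this KO site lies on its strand is unknown. The signal of the site therefore cannot be assigned to the host transcript alone.

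**Figure D1:**
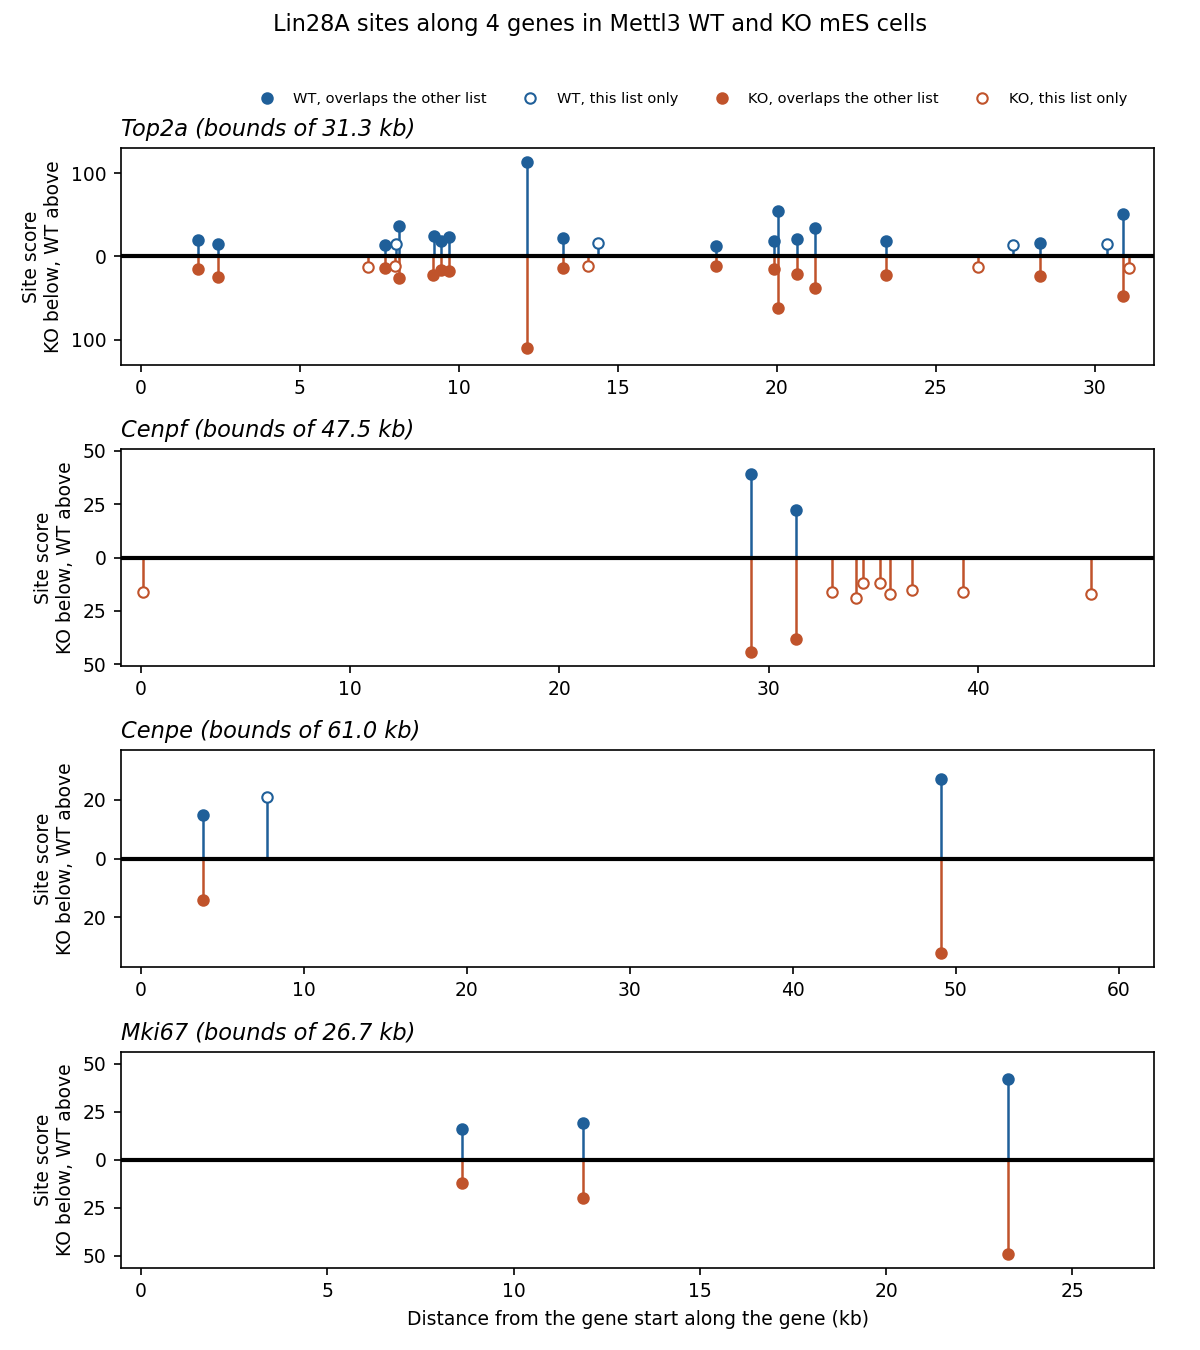
Lin28A sites along Top2a, Cenpf, Cenpe and Mki67, with the distance from the gene start in kb on the x axis and the authors' site score on the y axis, WT upward and KO downward (1 list each). Filled points overlap a site of the other list and open points do not: the open points score at most 21, and 9 of them are the KO-only sites of Cenpf.

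Cenpf had the most unequal numbers of the 4 genes. It encodes CENP-F, also called mitosin, which gathers at the nuclear envelope and kinetochore as cells enter mitosis. The gene spans chr1:189640606-189688107 on the minus strand and held 2 WT and 11 KO sites, or 0.421 and 2.32 sites per 10 kb. Its KO share was 84.6% (54.6 to 98.1, counting error only, with rows taken as independent). Among 313 protein-coding genes whose WT and KO sites together numbered at least 10, KO sites were at least 2 times WT sites in 3.83% and WT sites at least 2 times KO sites in 5.75%. Cenpf was chosen on these numbers, so the percent is given as background only.

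Both WT sites of Cenpf were also KO sites, with identical bounds. The site at 29.2 kb from the gene start, chr1:189658901-189658950, scored 39 in WT and 44 in KO. The site at 31.3 kb, chr1:189656751-189656800, scored 22 in WT and 38 in KO. They were the highest Cenpf sites of the KO list as well, so the leading sites of this gene were present in both genotypes.

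The 9 further KO sites of Cenpf scored between 12 and 19, with a median of 16. Of these, 7 lay in a run of 6300 nt at chr1:189648801-189655100, between 33.0 and 39.3 kb from the gene start, downstream of both shared sites. The highest of the run, chr1:189653901-189653950, scored 19. The eighth lay 45.4 kb from the start at chr1:189642651-189642700 and scored 17. The ninth was the site at the start of the transcript whose sequence is shown above, chr1:189688001-189688050, with a score of 16. All 9 were 50 nt wide, and the nearest WT site on that strand was between 1650 and 29050 nt away. The run therefore had no WT site beside it, and the closest WT site was the shared one at 31.3 kb.

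The Cenpf difference lay in sites that scored under 20, as most KO-only sites did. Over all protein-coding genes 1790 of 1979 KO-only sites (90.4%) scored under 20, and 1172 scored under 15. The 9 KO-only sites of Cenpf had a median score of 16. No KO-only site of Cenpf reached a score of 20, and with that minimum the gene had 2 sites in each list. By the deposited p-value that minimum was stricter for KO sites, and the highest KO-only site scored 19. Under the same minimum, 104 genes had at least 10 sites over both lists, Cenpf not among them, and KO sites were at least 2 times WT sites in 0.962% of these and WT sites at least 2 times KO sites in 10.6%. Of the 9, 2 scored 12, below the lowest score of the WT list, and could not have been listed there at that score. The lists nevertheless ended at nearly the same p-value of the authors' unnamed test. It was 1.01e-05 at a score of 13 in WT and 1.06e-05 at a score of 12 in KO. By that value a KO score of 12 was close to a WT score of 13. With sites of at least 13 in both lists, a setting chosen after the data were seen, Cenpf had 2 WT and 9 KO sites. How far the threshold of each list contributes to the difference was not tested.

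**Figure D2:**
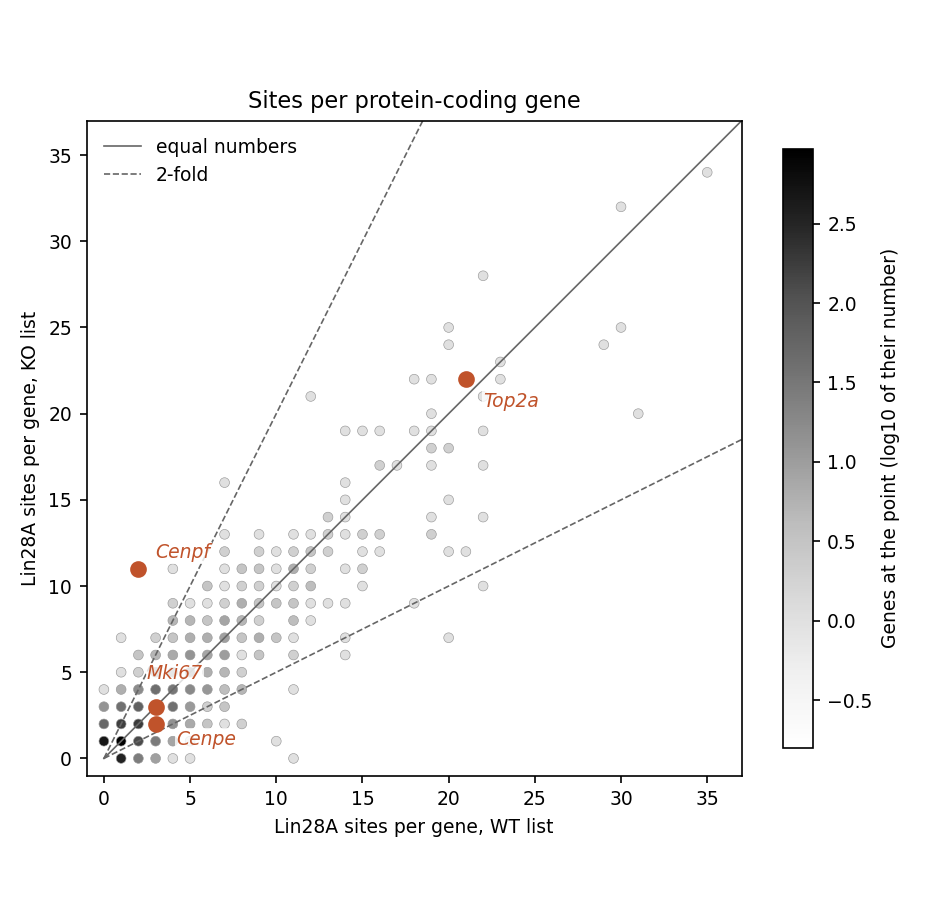
Number of Lin28A sites per protein-coding gene in the WT list (x axis) and the KO list (y axis) for the 3192 genes with a site, shaded by the number of genes at each point, with lines for equal numbers and for a 2-fold difference. Top2a (21 and 22) lies near the line of equal numbers among the highest genes, Cenpf (2 and 11) lies above the 2-fold line, and Mki67 (3 and 3) and Cenpe (3 and 2) lie in the dense lower corner.

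Genes near Cenpf in site numbers were few. By the distance between square roots of the 2 numbers, the most similar were Ubap2 with 4 WT and 11 KO sites, and Esrrb and Taok1 with 4 and 9 each. No other gene had exactly 2 and 11. Of the 313 genes with at least 10 sites, 12 had KO sites at least 2 times WT sites. In these 12 the median score of KO-only sites lay between 12 in Bzw1 and 16 in Cenpf and Elovl6. In 6 of the 12, Cenpf among them, no KO-only site reached 20, beside 90.4% of KO-only sites under 20 over all protein-coding genes. At least 9 KO-only sites were found in 1.28% of the 313 genes. For Top2a the nearest genes were Canx, an endoplasmic reticulum chaperone, with 21 and 22 sites, Ddb1 with 22 and 21 and the elongation factor Eef2 with 23 and 22.

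Cenpe held few sites. It encodes CENP-E, a kinesin motor that carries chromosomes along microtubules to the metaphase plate. The gene spans chr3:135212563-135273540 on the plus strand and held 3 WT and 2 KO sites, or 0.492 and 0.328 per 10 kb. The site at chr3:135261651-135261700, 49.1 kb from the start, scored 27 in WT and 32 in KO and was the highest in each list. The site at chr3:135216351-135216400, 3.79 kb from the start, scored 15 and 14. The WT list alone held the site at chr3:135220251-135220300, 7.69 kb from the start, with a score of 21. It was the only single-list site of the 4 genes with a score of at least 20. The same pair of numbers, 3 and 2, was found in 57 other genes, so no similar genes are named.

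Mki67 was alike in both lists. The gene spans chr7:135689784-135716450 on the minus strand and held 3 sites in each, 1.12 per 10 kb, with identical bounds. The highest, chr7:135693151-135693200, lay 23.3 kb from the start and scored 42 in WT and 49 in KO. The site at 11.9 kb, chr7:135704551-135704600, scored 19 and 20. The site at 8.60 kb, chr7:135707801-135707850, scored 16 in WT and 12, the lowest score of the list, in KO. The numbers 3 and 3 were shared by 95 other genes.

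In density the order was Top2a, Mki67, Cenpe, Cenpf in the WT list and Top2a, Cenpf, Mki67, Cenpe in the KO list. Below Top2a the WT numbers were 3, 3 and 2, and these differ by less than their counting error. None of the 67 sites had a counterpart on the opposite strand: no row of either list lay on the other strand within the bounds of the 4 genes. Over all protein-coding genes, 8.67% of WT and 8.13% of KO rows within gene bounds lay on the opposite strand only. The nearest row outside the bounds on the same strand was at least 118844 nt away for every one of the 4 genes.

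Along the genes the sites were not gathered at the 3′ end in the WT list. With each gene divided into 3 equal parts from its start, 11 of the 29 WT sites lay in the first part, 10 in the middle and 8 in the last, or 27.6% in the last part. Over all protein-coding genes 53.8% of WT sites lay in the last part. In the KO list the 4 genes had 12, 10 and 16 sites, 42.1% in the last part, beside 55.7% over all genes. Top2a alone had 8, 7 and 6 in WT and 9, 7 and 6 in KO. Of the 11 KO sites of Cenpf, 8 lay in the last part, and its 2 WT sites lay in the middle. The parts are of gene bounds with introns, so they are not parts of the mRNA.

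Over the 4 genes, 5 of 29 WT sites (17.2%, 5.85 to 35.8) had no overlapping KO site and 14 of 38 KO sites (36.8%, 21.8 to 54.0) had no overlapping WT site. The background over protein-coding genes was 26.9% of WT and 28.6% of KO sites. Without Cenpf, 5 of 27 sites were in a single list in each genotype (18.5%, 6.30 to 38.1). The KO excess of single-list sites in the set therefore came from Cenpf.

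Whether a site was found in both lists went with its score. Over all protein-coding genes, 57.9% of WT and 57.0% of KO sites with a score under 15 had no counterpart, against 0.578% and 0.316% of those with a score of 50 or above. Of the 19 single-list sites of the 4 genes, 18 scored under 20 (4 of 5 WT and 14 of 14 KO), near the background of 87.3% of WT and 90.4% of KO single-list sites in protein-coding genes. Among their KO sites with a score under 20, 14 of 23 were in the KO list only, beside 45.5% of such sites over all protein-coding genes. Of their 15 KO sites with a score of at least 20, none was in the KO list only, beside 6.34% over all. For WT, 4 of 15 sites under 20 were in the WT list only, beside 46.2%, and 1 of 14 at 20 or above, beside 6.91%.

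**Figure D3:**
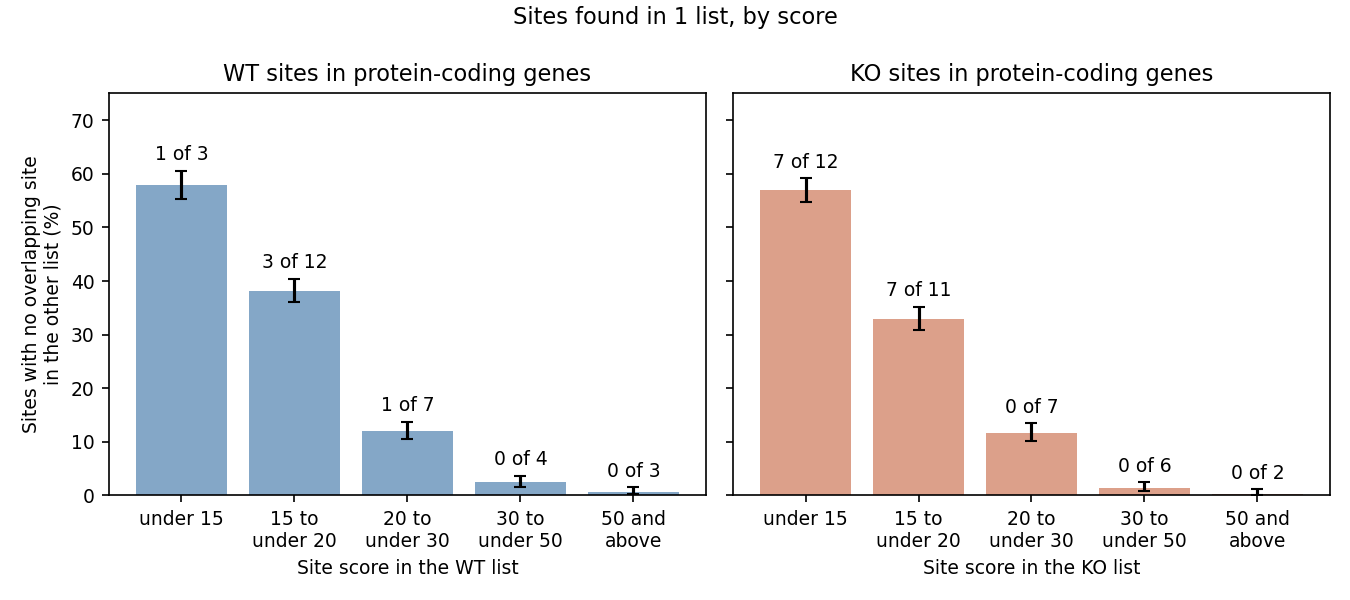
Percent of sites in protein-coding genes that overlap no site of the other list (y axis), by site score (x axis), for the WT list (left) and the KO list (right); error bars are exact 95% binomial intervals for counting error, and the text over each bar gives the sites of Top2a, Cenpf, Cenpe and Mki67 in a single list out of all their sites in that class. The share falls from 57.9% and 57.0% in the lowest class to under 1% in the highest, and the KO-only sites of the 4 genes all lie in the lowest 2 classes.

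Other genes of the same processes were read from 7 lists, chosen with earlier results of these data known. Of 163 genes, 136 could be placed on a strand, and 88 of these held a site in either list (64.7%, beside 18.2% of all protein-coding genes). RNA level was not measured here, and its part in this share was not tested. The 88 genes held 231 WT and 247 KO sites. More KO than WT sites were found in 29, fewer in 24 and equal numbers in 35, with a median difference of 0, which is also the median over all 3192 genes with a site (more KO sites in 1053, fewer in 827, equal in 1312). Of the 14 with at least 10 sites, Cenpf alone, a gene chosen on these numbers, differed by at least 2-fold. Over all 313 such protein-coding genes, 12 had at least 2 times as many KO sites and 18 at least 2 times as many WT sites.

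All 5 genes of the topoisomerase list that could be placed held sites. Apart from Top2a, Top1, which relaxes supercoils by single-strand cuts, and Topbp1, a replication checkpoint scaffold, had 4 sites in each list. Of 35 kinetochore and spindle checkpoint genes 15 held sites, 25 in WT and 31 in KO, and without Cenpf and Cenpe the numbers were 20 and 18. Bub1, a checkpoint kinase, had 3 in each list. Of the 15 genes, 4 had more KO sites, 4 fewer and 7 equal numbers. With a score of at least 20 the kinetochore and checkpoint genes, Cenpf and Cenpe included, held 15 WT and 11 KO sites over 11 genes. Of these 11, 1 had more KO sites, 4 fewer and 6 equal numbers (433, 568 and 946 over all protein-coding genes with such a site).

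Mitotic kinesins held few sites, 6 in WT and 5 in KO over 5 of 12 genes, with 3 and 1 in Kif11, the motor that pushes spindle poles apart, and 1 in each list in Kif14 and in Kif20b. Condensin and cohesin genes, which shape chromosomes and hold sisters together, had 23 and 22 sites over 13 of 15 genes. Among them Ncapd2, a condensin subunit, had 5 and 7, the cohesin release factor Wapl 5 and 2, and Ncapg2 2 and 2. Mitotic kinases, cyclins and spindle genes had 33 and 24 sites over 16 of 22 genes. Ect2, a cytokinesis exchange factor, had 8 and 5, the microtubule polymerase Ckap5 5 and 4 and the spindle pole protein Aspm 3 and 4. Of the 16 genes, 4 had more KO sites, 8 fewer and 4 equal numbers (1053, 827 and 1312 over all protein-coding genes with a site). With a score of at least 20 they held 14 WT and 9 KO sites over 11 genes. Of these 11, 2 had more KO sites, 7 fewer and 2 equal numbers (433, 568 and 946 over all).

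Replication genes held 76 WT and 93 KO sites over 30 of 42 genes, of which 12 had more KO sites, 5 fewer and 13 equal numbers (1053, 827 and 1312 over all protein-coding genes with a site). With a score of at least 20 the numbers turned to 34 WT and 30 KO sites over 20 genes, of which 4 had more KO sites, 6 fewer and 10 equal numbers (433, 568 and 946 over all). The leading genes were subunits of the MCM helicase, which unwinds DNA at the fork: Mcm3 had 11 WT and 9 KO sites, Mcm5 had 9 and 11, and Mcm2 had 6 and 10. With a score of at least 20, Mcm5 had 4 and 4 and Mcm2 1 and 1. As stated above, 1 minimum score was not the same cut in both lists. The list of Mki67 and genes of nucleolar proteins had 35 and 39 sites over 4 of 5 genes, Mki67 included, and Nifk held none. Ncl, which encodes nucleolin, had 19 and 22 sites, and the box C/D snoRNP proteins Nop58 and Nop56 had 6 and 8 and 7 and 6.

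**Figure D4:**
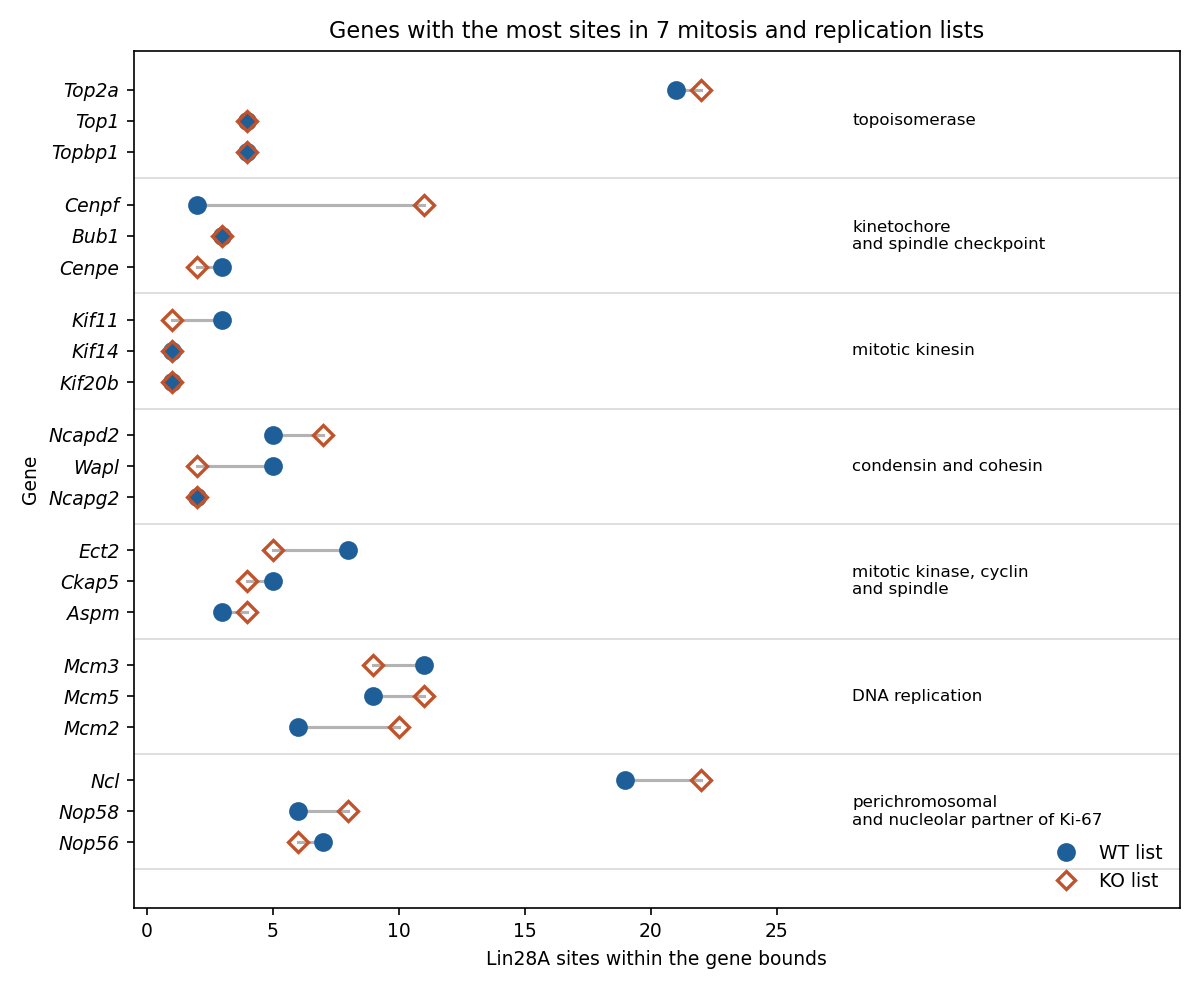
Lin28A sites within the gene bounds (x axis) in the WT list (filled circles) and the KO list (open diamonds) for the 3 genes with the most sites in each of 7 lists of mitosis and replication genes (y axis), 1 list per genotype. Cenpf, with 2 WT and 11 KO sites, has the widest gap, and Top2a and Ncl hold the most sites in both lists.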

How the data were processed

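Lin28A irCLIP site lists of Mettl3 WT and Mettl3 KO mES cells were used, 1 list per genotype. Per site, the lists deposited by the authors give a score, a p-value, a strand and bounds on a 50-nt grid. The deposited score served for description, for ranks inside its own list and for filters, some with 1 minimum for both lists. The scores of shared Top2a sites were also correlated by rank between the lists. The deposited p-value, at most 1.1e-05, was not used for tests. That p-value served only to compare what the same score stood for in each list. The submitters' processing notes name Bowtie2, UMI-tools and mm10, without tool versions. The site caller, its control and threshold, the read depth and any pooling of replicates were not given in the sources used here, so the precision of a score is unknown.

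Positions were written 1-based. Gene bounds came from RefSeq GRCm38.p6, and strands from the RefSeq promoter table, which gave 1 strand for 17492 of 21900 protein-coding genes. Sites were shared when they overlapped by at least 1 nt on the same strand. Intervals are exact (Clopper-Pearson) 95% binomial intervals and cover counting error only. For the KO share they take rows as independent, although a shared site enters as 1 row in each list. They are therefore a rough yardstick for that share. No test was run, since each group had 1 sample. Counting was tested on simulated sites. Python 3.11.15, pandas 2.3.3, SciPy 1.17.1 and Matplotlib 3.10.9 were used.

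Named in full are the 4 genes, their 3 highest sites, their single-list sites and, from each list, the 3 genes with the most sites plus any with at least 10 sites that differed 2-fold. Similar genes were those nearest in square-root site numbers. For Cenpf all single-list sites are described, by range. The members and lists were chosen with earlier results of these data known. The alternatives were score minimums, counting by bins or merged sites, other rules of assignment and other definitions of a shared site.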

Additional observations from a re-analysis of the deposited data

How the results depend on the processing

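The KO share of sites of each of the 4 genes was recomputed under 8 settings and the percent of single-list sites in each list under 10. With a score of at least 20 in both lists, the KO share of Cenpf moved from 84.6% to 50% (2 of 4 sites), outside its counting interval. With the median score of each list as the minimum, it was 60% (3 of 5 sites). The other 51 of 52 values stayed within the counting interval of the reported value, but the intervals for Cenpe and Mki67 rest on 5 and 6 sites and span most of the scale. With a score of at least 20, genes with at least 10 such sites and at least 2 times as many in KO numbered 1 of 104, and 11 had at least 2 times as many in WT, where all sites gave 12 and 18 of 313. By the deposited p-values of the 4 genes, 1 minimum score was the stricter cut in the KO list, so these values do not show equal cuts. With the lowest score of the WT list as the minimum in both, chosen after the data were seen, the Cenpf share was 81.8%. No paired analysis was possible because each genotype had 1 sample. No replicate could be left out for the same reason.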
